A study of Mus musculus with 22 samples.

Results

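The clustered protocadherins are cell adhesion proteins encoded in 3 neighbouring gene clusters, alpha, beta and gamma, and the expression table of this study held 26 of these genes among 18487. They were selected by gene symbol and not by a measured value, although earlier results of these data were known when the set was chosen. The alpha cluster was represented by 3 members (Pcdha3, Pcdha7 and Pcdha12), the beta cluster by 2 (Pcdhb17 and Pcdhb22) and the gamma cluster by 21, of which 11 are of the A type, 7 of the B type and 3 of the C type. The GENCODE annotation of mm10 lists 13 alpha, 22 beta and 22 gamma symbols, and the remaining genes, among them Pcdhga6 and the C-type alpha genes Pcdhac1 and Pcdhac2, were not analysed here. The main change was a fall of the gamma cluster with DZNep, where 12 of 21 gamma members were called lower and their summed value was 52.3% of that in the NC libraries. A smaller fall was seen with Valproate, where 4 gamma members were called and the sum was 69.0% of NC. Over all tested genes, 6.14% were called lower with DZNep and 2.55% with Valproate. The calls were lost when a compound and NC were fitted without the other groups.

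Each alpha or gamma gene begins with its own variable exon, which encodes the extracellular cadherin repeats and the membrane-spanning segment, and this exon is spliced to constant exons shared by the whole cluster. The beta genes consist of a single exon. In neurons, single promoters are chosen through CTCF sites, cohesin and DNA methylation, so that neighbouring cells carry different sets of these proteins and recognise their own branches, whereas the C-type genes are expressed more uniformly. The proteins bind to like proteins on other cells, and the cytoplasmic part of the alpha and gamma proteins binds the focal adhesion kinases.

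RNA sequencing was performed in 22 libraries of E14 cells, a mouse embryonic stem cell (ESC) line, with 2 libraries in each of 11 groups. According to the labels, 10 groups were treated with Bromosporine, Chaetocin, CPTH2, DZNep, Garcinol, IOX1, MS023, OICR, UNC0379 or Valproate, and the last carried the label NC, with no compound named. All groups share the cell line, and the labels state no genotype, dose, duration or vehicle. DZNep inhibits S-adenosylhomocysteine hydrolase and thereby methyltransferases, Valproate inhibits histone deacetylases, Bromosporine binds bromodomains and MS023 inhibits type I arginine methyltransferases. IOX1 inhibits histone demethylases of the Jumonji family, UNC0379 inhibits the lysine methyltransferase SETD8, Chaetocin inhibits SUV39 methyltransferases, and CPTH2 and Garcinol inhibit histone acetyltransferases. What OICR stands for is not given in the labels. The study's methods describe ESCs grown in serum and LIF and do not mention these compounds. Nothing in the labels states that the 2 libraries of a group came from separate cultures, so p-values measure the spread between libraries, which may be technical.

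The values are normalised read counts, set by the authors to an equal distribution in every library, with a median of 409 and a highest value of 221616. The depth of each library is not known from these values, and 1065 to 1707 genes per library were listed at 0. In the NC libraries, the pluripotency factors Pou5f1 (28606 and 29454) and Nanog (44793 and 59405) were high, as ESCs show. Markers of primitive endoderm were lower but detected, with Pdgfra at 22 and 19, Sox17 at 43 and 30, Gata4 at 156 and 154 and Gata6 at 192 and 115. The contrasts of each compound with NC were fitted by limma on log2(value + 1), over the 17275 genes that reached 10 in at least 2 libraries. Calls needed an adjusted p (Benjamini-Hochberg) under 0.05 and more than a 2-fold difference. Of the 26 clustered protocadherins 23 were tested, and 22 were above 0 in all libraries. All 10 comparisons share the same NC libraries, and bulk RNA cannot tell fewer expressing cells from less RNA per cell.

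The alpha and beta members were near the bottom of the table, and Pcdhb22 alone was detected in every library. The alpha cluster lies on chromosome 18 of mm10 at 36930184 to 37187661, on the plus strand. Pcdha3 was listed at 0 in 20 of 22 libraries and reached 9 at most. Pcdha7 was above 0 in 1 library, a Valproate library, at 12. Pcdha12 was at 0 in both NC libraries, at 33 and 6 with IOX1, at 10 and 7 with UNC0379 and at 0 and 29 with CPTH2. It was the only alpha member tested and was not called with any compound. Within the beta cluster, at 37264938 to 37524479, Pcdhb17 was at 0 in 17 libraries and did not exceed 4. Pcdhb22, at 37517871 to 37524479, ranged from 4 to 75 with a median of 39.

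The 21 gamma members, at 37661793 to 37841873, were all above 0 in every library and differed widely in level. Between genes, levels are compared per kilobase of transcript in the NC libraries. Pcdhgc4, a C-type member needed for the survival of neurons, was highest with normalised counts of 1825 and 1991, a mean of 380 per kb. It was followed by Pcdhgc3, a C-type member that acts in dendrite branching, at 165 per kb (802 and 741). Pcdhga12, the last of the A-type genes, followed at 120 per kb (537 and 678) and Pcdhga11 at 61.5 per kb (275 and 310). The third C-type member, Pcdhgc5, was the lowest of the gamma cluster at 6.86 per kb (41 and 24), and Pcdhb22 stood at 5.22 per kb (40 and 29). In the order of the 22 members above 0 in all libraries, the first 5 pairs of neighbours did not overlap between their NC libraries, while 13 of all 21 neighbouring pairs did. Pcdhgc4 alone made up 33.9% and 35.0% of the summed gamma value in the NC libraries, and the C type as a whole 49.5% and 48.4%.

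The transcripts of the gamma members overlap in sequence, which bears on how reads could be assigned. All 21 share the constant exons of 59 and 89 bases and a last exon of 1968 or 1971 bases, whose reads can be split between members during counting. Of the 31-base stretches of each transcript, between 41.9% (Pcdhgc4) and 99.4% (Pcdhga10) also occur in another annotated gene. The library kit is not stated to keep the strand, and antisense or opposite-strand transcripts are annotated over Pcdhga10, Pcdhga11, Pcdhga12 and Pcdhgb7 (Gm26672), Pcdhgc3 (BC037039), Pcdhga1 (Gm37118), and Pcdhga7 and Pcdhga8 (Gm37165). For these members, sense and antisense reads cannot be told apart. Single gamma members are therefore uncertain in their share of the constant exons. Before normalisation, the sum over the 21 members does not depend on how these reads were split among them. Setting each library to an equal distribution acts on each gene, so this need not hold exactly for the summed normalised counts. Reads could also go to Pcdhga6, which is not in the sum, or to other annotated transcripts that overlap the shared exons on the same strand.

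With DZNep, most of the gamma cluster fell. Of the 23 members tested, 13 were called, each of them lower (56.5%), whereas over all tested genes 11.4% were called and 6.14% were called lower. By type, 6 of 11 A-type, 6 of 7 B-type and 0 of 3 C-type gamma members were called lower, together with Pcdhb22. The median log2 change of the 21 gamma members was -1.12, beside -0.04 over all genes tested. Both DZNep libraries lay below both NC libraries in 20 of the 23 members, a pattern found in 32.4% of all tested genes. The summed gamma value was 5387 and 5693 in the NC libraries and 3113 and 2686 with DZNep, while the 18 libraries of the 9 groups other than DZNep and Valproate, NC among them, spanned 4867 to 6323.

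**Figure D1:**
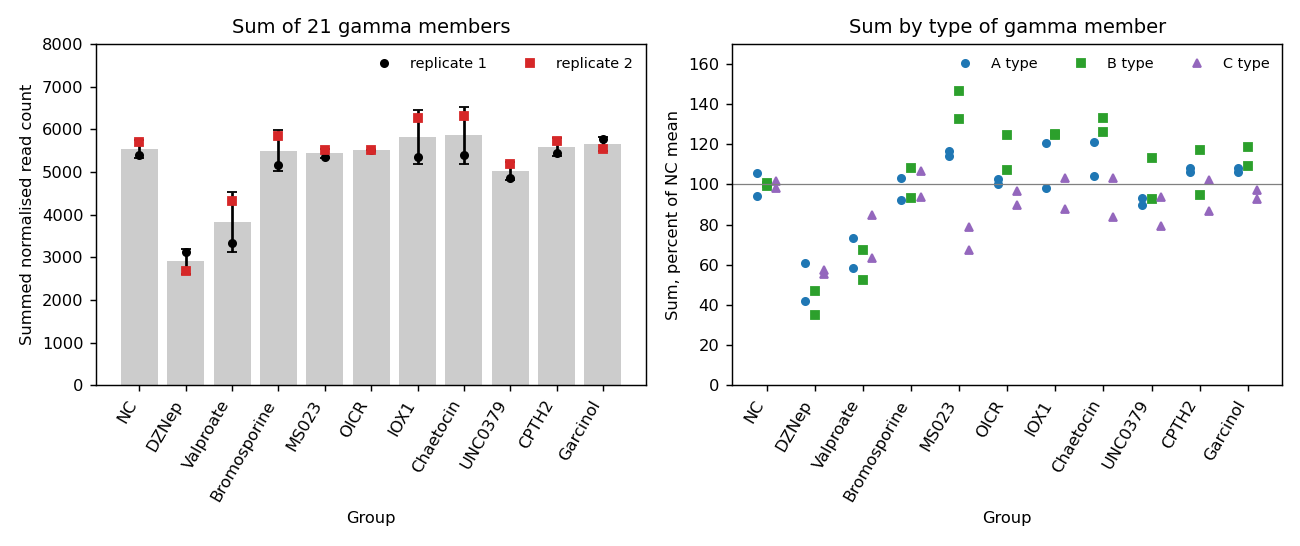
Left, the summed normalised read count of the 21 gamma members in each group, with bars for the mean of 2 libraries, error bars for the SD and symbols for each library. Right, the sums of the A, B and C types in each library as a percent of the NC mean. The DZNep and Valproate libraries lie below all others in the left panel, and with MS023 the B type lies above and the C type below NC.

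The B-type genes included the largest change. Pcdhgb1 was at 78 and 44 in the NC libraries and at 15 and 2 with DZNep, 8.61-fold lower (log2 change -3.11 ± 0.59 SE, adjusted p = 0.00211). The NC libraries of this gene were far apart, and values in the other groups reached 120. Pcdhgb8, annotated as a polymorphic pseudogene, was at 162 and 185 in NC against 58 and 54 with DZNep (-1.61 ± 0.23, adjusted p = 0.000333). Pcdhgb4 fell from 62 and 77 to 28 and 19 (-1.54 ± 0.31, adjusted p = 0.00286). NC and DZNep did not overlap in either of these genes. Pcdhgb6 fell from 93 and 83 to 33 and 31 (-1.43 ± 0.26, adjusted p = 0.00159). Pcdhgb2 was at 134 and 121 in NC against 44 and 59 with DZNep (-1.30 ± 0.31, adjusted p = 0.00855). In Pcdhgb5, with 90 and 114 in NC and 65 and 32 with DZNep, the second DZNep library was the lower (-1.13 ± 0.30, adjusted p = 0.0136). The remaining B-type gene, Pcdhgb7, was at 153 and 139 in NC against 117 and 72 with DZNep and was not called (-0.66 ± 0.24, adjusted p = 0.0613).

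Among the A-type genes, Pcdhga8 fell most. It was at 102 and 131 in NC against 30 and 15 with DZNep, 5.24-fold lower (-2.39 ± 0.32, adjusted p = 0.000201). Pcdhga11 was at 275 and 310 in NC against 145 and 88 with DZNep (-1.36 ± 0.23, adjusted p = 0.000879). The most abundant A-type gene, Pcdhga12, was at 537 and 678 in NC against 297 and 255 with DZNep (-1.13 ± 0.18, adjusted p = 0.000687). In these 3 genes NC and DZNep did not overlap, and the DZNep libraries stayed apart from all other groups in Pcdhga11 and Pcdhga12. Pcdhga5 (78 and 75 in NC, 44 and 18 with DZNep), Pcdhga3 (149 and 136, then 96 and 44) and Pcdhga10 (146 and 171, then 75 and 75) were called with log2 changes of -1.41, -1.12 and -1.07. The DZNep libraries differed from each other by more than the NC libraries in Pcdhga5 and Pcdhga3, and were equal in Pcdhga10. In Pcdhga2 the groups overlapped, with 128 and 107 in NC and 113 and 105 with DZNep (-0.10 ± 0.18, adjusted p = 0.730). They also overlapped in Pcdhga9, with 46 and 30 in NC and 49 and 15 with DZNep (-0.43 ± 0.45, adjusted p = 0.529).

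The C-type genes were lower with DZNep in both libraries but by less than 2-fold. Pcdhgc4 was at 1825 and 1991 in NC against 889 and 1095 with DZNep, 1.93-fold lower (-0.95 ± 0.19, adjusted p = 0.00245), so it passed the threshold on p and not that on fold. It was called when the first NC library (-1.01, adjusted p = 0.0156) or the second DZNep library (-1.10, adjusted p = 0.00486) was left out, so that the count of 0 C-type calls depends on single libraries. Pcdhgc3 was at 802 and 741 and at 594 and 438 (-0.59 ± 0.22, adjusted p = 0.0651). Pcdhgc5 was at 41 and 24 and at 20 and 22 (-0.56 ± 0.29, adjusted p = 0.179). As a share of the summed gamma value, Pcdhgc4 was at 28.6% and 40.8% with DZNep, on either side of its NC shares. The sums of the A, B and C types with DZNep were 51.2%, 41.0% and 56.4% of NC.

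Outside the gamma cluster, Pcdhb22 was at 40 and 29 in NC against 12 and 4 with DZNep, 4.35-fold lower (-2.12 ± 0.48, adjusted p = 0.00634). The 7 gamma members with at most 50% of their 31-base stretches shared summed to 52.4% of NC with DZNep, close to the 52.3% of the whole cluster. Most of that sum came from Pcdhgc4 and Pcdhga12, with NC means of 1908 and 607.5 beside 2922.5 for the 7. Pcdhga2 and Pcdhga9, which overlapped NC, are also among the 7. No B-type member is among them, and neither is Pcdhga8 or Pcdhga11, so the sum does not speak for these genes. All 13 calls were lost when the DZNep and NC libraries were fitted on their own, where 0.562% of all genes were called, and leaving out any single NC or DZNep library left 9 to 14 members called. Of the 13 calls, 6 (Pcdhgb1, Pcdhgb4, Pcdhgb6, Pcdhgb8, Pcdhga8 and Pcdhga11) held with any single library left out, while without the second DZNep library the gamma median was -0.78.

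**Figure D2:**
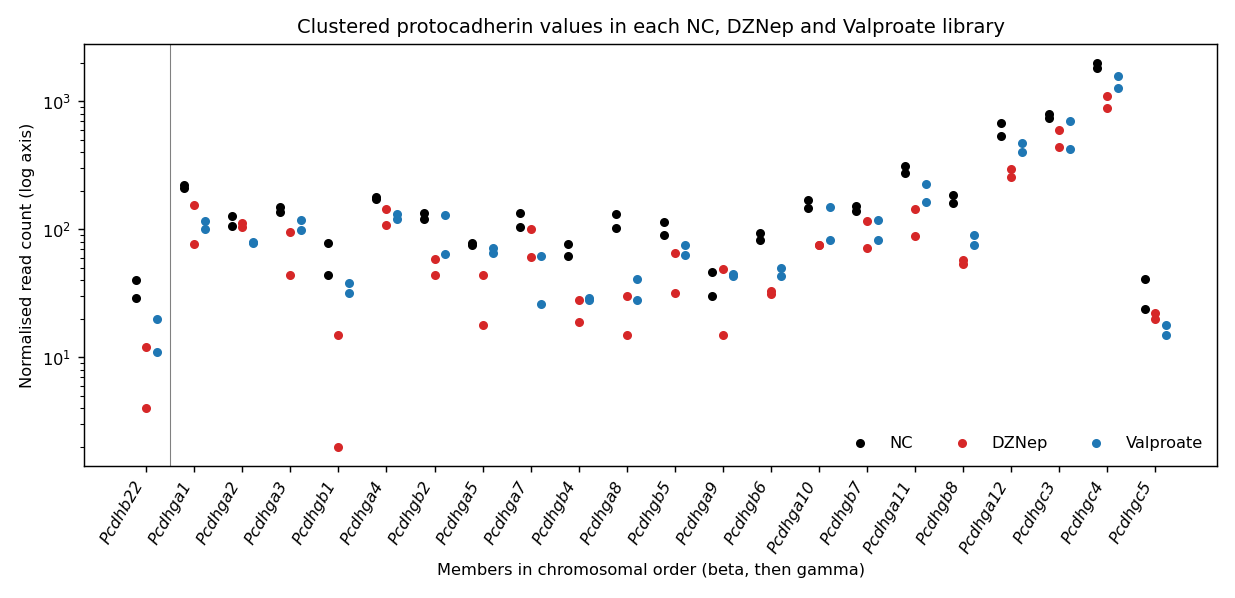
Normalised read counts (log axis) of Pcdhb22 and the 21 gamma members, in chromosomal order, in each NC (black), DZNep (red) and Valproate (blue) library, 1 point per library. The DZNep points lie below the NC points for most genes, by most for Pcdhgb1 and Pcdhga8, and overlap them for Pcdhga2 and Pcdhga9.

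With Valproate the same cluster was lower, by less. Of the 23 members tested 4 were called, each of them lower (17.4%), beside 5.28% called and 2.55% called lower over all genes. Both Valproate libraries lay below both NC libraries in 19 members, and in 27.6% of all tested genes. The median log2 change of the gamma members was -0.56, beside -0.02 over all genes. The summed gamma value was 3323 and 4323, and the first Valproate library was the lower in the A, B and C types alike.

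Pcdhga8 fell most with Valproate, from 102 and 131 to 28 and 41, 3.34-fold (-1.74 ± 0.32, adjusted p = 0.00420). Pcdhga7 was at 104 and 134 in NC against 26 and 62 with Valproate (-1.53 ± 0.42, adjusted p = 0.0323), whereas with DZNep it was at 101 and 61 and was not called. Pcdhgb4 was at 62 and 77 in NC against 28 and 29 with Valproate (-1.25 ± 0.31, adjusted p = 0.0201). The libraries of these genes did not overlap with NC, and Pcdhga7 and Pcdhga8 lie under the same opposite-strand transcript. Pcdhgb8 fell from 162 and 185 to 90 and 75 (-1.07 ± 0.23, adjusted p = 0.0108). The C-type genes were not called: Pcdhgc4 was at 1273 and 1580 (-0.43 ± 0.19, adjusted p = 0.176), Pcdhgc3 at 423 and 698 (-0.50, adjusted p = 0.176) and Pcdhgc5 at 18 and 15 (-0.89, adjusted p = 0.0680). Pcdhb22 was at 11 and 20 with Valproate and missed the threshold (-1.14 ± 0.48, adjusted p = 0.164). Leaving out any single NC or Valproate library left 2 members called, with Pcdhga8 as the call that held each time, and a fit of the Valproate and NC libraries alone called 0. Without the second Valproate library the gamma median was -0.83. With the mean of the other groups in place of NC, Pcdhgc5 (-1.15, adjusted p = 0.00215) and Pcdhb22 (-1.07, adjusted p = 0.0491) were called in addition, 6 members in all, and without the second NC library Pcdhgc5 was called (-1.27, adjusted p = 0.0374).

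DZNep and Valproate were also compared with each other, without NC, a comparison chosen after the values had been seen. Of 23 members 2 were called, both lower with DZNep, beside 10.8% called and 5.92% called lower over all genes. Pcdhgb1 was at 15 and 2 with DZNep against 32 and 38 with Valproate (-2.37 ± 0.59, adjusted p = 0.0115). Pcdhga5 was at 44 and 18 with DZNep against 65 and 71 with Valproate (-1.24 ± 0.42, adjusted p = 0.0468). These pairs of libraries did not overlap. In all, 17 of 21 gamma members were lower with DZNep, with a median difference over the 21 of -0.55, beside -0.03 over all tested genes. Both DZNep libraries lay below both Valproate libraries in 10 of the 21. The shares of all genes with these 2 patterns are not given here, so the counts are description only. The largest differences in the other direction were those of Pcdhga7 and Pcdhga2 (0.95 ± 0.42, adjusted p = 0.123, and 0.46 ± 0.18, adjusted p = 0.0888), neither past the threshold.

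**Figure D3:**
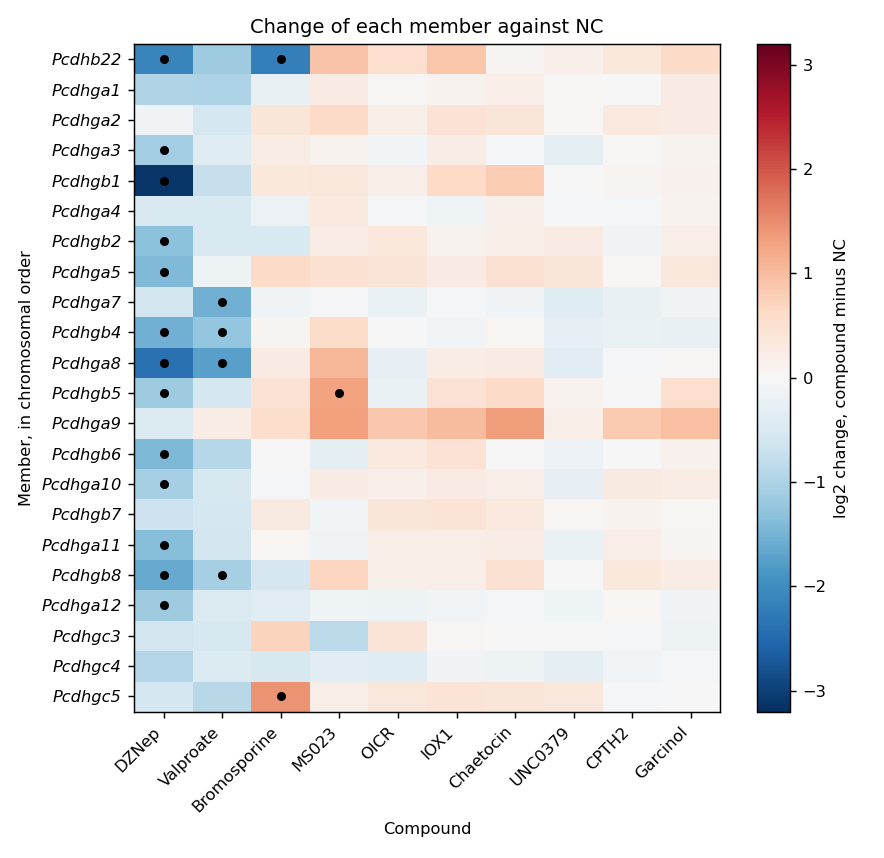
The log2 change against NC (colour) of Pcdhb22 and the 21 gamma members, in chromosomal order, for each of 10 compounds, with black dots on called members. The columns of DZNep (13 dots) and Valproate (4 dots) are blue over most members, and 3 further dots lie with Bromosporine and MS023.

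With MS023 the gamma members moved in both directions, and the sum hardly changed. A single member was called, beside 0.973% of all genes. This was Pcdhgb5, a B-type gene, at 90 and 114 in NC against 267 and 229 with MS023, 2.43-fold higher (1.28 ± 0.30, adjusted p = 0.0426). Its neighbours Pcdhga8 (102 and 131, then 255 and 231) and Pcdhga9 (46 and 30, then 103 and 85) were higher as well but not called (1.06, adjusted p = 0.119, and 1.31, adjusted p = 0.174). The MS023 libraries held the highest values of Pcdhgb5 and Pcdhga8 among all 22. Pcdhgc3 went the other way, from 802 and 741 to 375 and 483, 1.81-fold lower, and was not called (-0.86 ± 0.22, adjusted p = 0.0642). Its share of the summed gamma value was 14.9% and 13.02% in NC and 6.996% and 8.77% with MS023. The A-, B- and C-type sums were 116%, 140% and 73.1% of NC, and the sum of the whole cluster was 98.1%. The call of Pcdhgb5 was lost when any single NC or MS023 library was left out and in a fit of the MS023 and NC libraries alone. Pcdhga8 was called in addition when the mean of the other groups took the place of NC (1.46, adjusted p = 0.00225).

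With Bromosporine, 2 of 23 members were called, in opposite directions, beside 3.34% of all genes. Pcdhgc5, a C-type member expressed late in brain development, was at 41 and 24 in NC against 85 and 88 with Bromosporine, 2.70-fold higher (1.43 ± 0.29, adjusted p = 0.0120). Both libraries were above the highest of all other groups. Pcdhb22 fell from 40 and 29 to 11 and 4, 4.53-fold (-2.18 ± 0.48, adjusted p = 0.0194), a level like that with DZNep. Pcdhgc3 had its highest values of the series with Bromosporine, 1317 and 1221 against 802 and 741 in NC, and was not called (0.72 ± 0.22, adjusted p = 0.0782). Pcdhgc4 was at 1145 and 1580 (-0.50 ± 0.19, adjusted p = 0.144). The C-type genes thus differed in direction, and Pcdhgc3 made up 25.5% and 20.9% of the summed gamma value in the Bromosporine libraries, beside 22.2% and 27.1% for Pcdhgc4. The sum of the cluster was 99.3% of NC, and that of the 7 members with at most 50% shared stretches was 82.5%. Leaving out single libraries left 0 or 1 member called: 0 without the second NC or the second Bromosporine library, and 1 without the first of either group. A fit of the Bromosporine and NC libraries alone called 0.

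**Figure D4:**
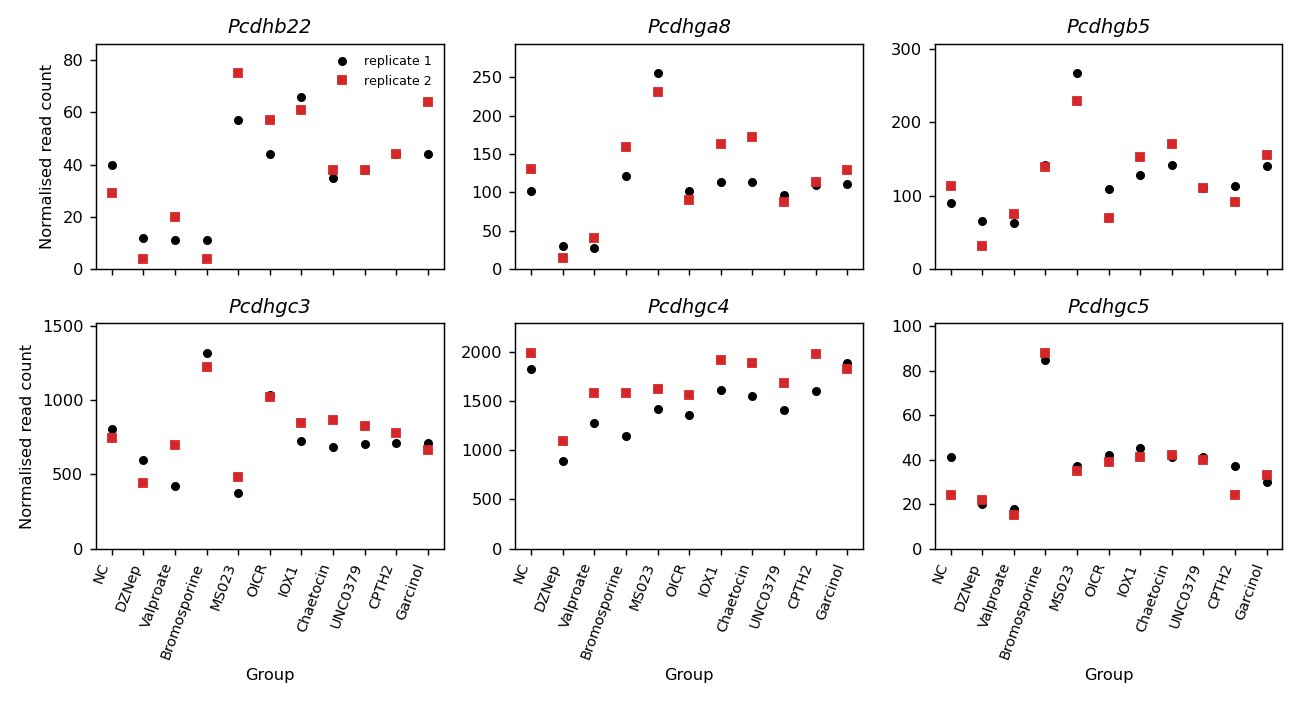
Normalised read counts (axes from 0) of Pcdhb22, Pcdhga8, Pcdhgb5, Pcdhgc3, Pcdhgc4 and Pcdhgc5 in each library of the 11 groups, with circles for replicate 1 and squares for replicate 2. Pcdhb22 is low with DZNep, Valproate and Bromosporine, Pcdhgb5 and Pcdhga8 are highest with MS023, and Pcdhgc3 and Pcdhgc5 are highest with Bromosporine.

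For the other 6 compounds limma called 0 of 23 members. Over all genes, 0.388% were called with OICR, 0.116% with IOX1, 0.0174% with Chaetocin, 0.00579% each with CPTH2 and Garcinol, and 0% with UNC0379. At an unadjusted p under 0.05 there were 3 members with IOX1 and 1 with Chaetocin, beside 12.4% and 4.72% of all tested genes. At the same threshold there were 0 members with each of OICR, CPTH2, Garcinol and UNC0379, beside 10.7%, 0.944%, 3.62% and 6.08% of all genes. The gamma medians lay between -0.02 (UNC0379) and 0.23 (IOX1) on the log2 scale. With IOX1, 13 members had both libraries above both NC libraries, and 19.4% of all tested genes did. Chaetocin and Garcinol had 11 such members each, beside 14% and 16.2% of all genes.

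Pcdhga9 was the member with the largest non-overlapping rise with Chaetocin, CPTH2, Garcinol, OICR and MS023, in none of them past the threshold. It was low in the NC libraries, at 46 and 30, and at 100 and 91 with Chaetocin (1.34 ± 0.45, adjusted p = 0.803). Since the same NC libraries enter each of these comparisons, they are not independent. Pcdhga12 ranged from 497 to 687 in the 12 libraries of these 6 compounds, beside 537 and 678 in NC. For OICR the largest non-overlapping fall was that of Pcdhgc4, at 1356 and 1558 (-0.39 ± 0.19, adjusted p = 0.480). Pcdhgc3 was at 1031 and 1022 with OICR, above both NC libraries. The largest non-overlapping falls with the other compounds were not called, namely Pcdhga7 with UNC0379 (-0.40), Pcdhgc3 with Garcinol (-0.17), Pcdhga4 with IOX1 (-0.13) and Pcdhgb2 with CPTH2 (-0.11).

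The size of the fall with DZNep was only weakly related to the position of a gene in the cluster or to its level in NC. The variable exons lie between 160.7 kb (Pcdhga1) and 2.89 kb (Pcdhgc5) from the first constant exon. Over the 21 gamma members, which share constant exons and libraries, the log2 change with DZNep had a Pearson r of -0.17 with this distance and of 0.14 with the log2 mean in NC, and with Valproate the values were -0.03 and 0.10. With MS023 the correlation with distance was 0.37 and that with the NC level -0.60. The correlation with the NC level was similar with IOX1 (-0.64) and Chaetocin (-0.60). It lay from -0.52 (Bromosporine) to -0.23 (CPTH2) with the remaining compounds. The level in NC enters each of these changes, so the relation with that level has a built-in part. These correlations describe genes, which are not replicates, and were not tested.

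**Figure D5:**
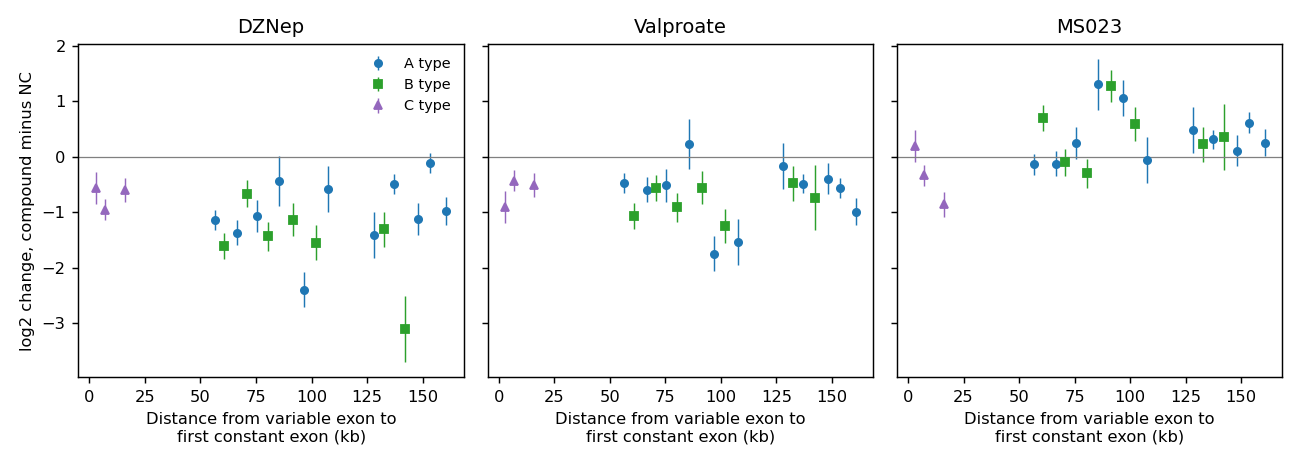
The log2 change against NC of each gamma member (points, with SE) by the distance in kb from its variable exon to the first constant exon, for DZNep, Valproate and MS023, coloured by type. With DZNep and Valproate nearly all points lie below 0 along the whole cluster, and with MS023 the points above 1 lie between 85.5 and 96.7 kb.

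The regulators of the clusters were examined as lists from general knowledge. Their calls stand beside 11.4% of all tested genes called with DZNep and 5.28% with Valproate. Of 12 cohesin and CTCF genes, all tested, Ctcfl alone was called. This testis paralogue of CTCF was at 4 and 8 in NC, at 78 and 48 with DZNep (3.21 ± 0.52, adjusted p = 0.000721) and at 31 and 38 with Valproate (2.397 ± 0.523, adjusted p = 0.0104). Ctcf itself was at 5137 and 6135 in NC against 5649 and 5722 with DZNep. Of 8 DNA methylation genes, Dnmt3l, the cofactor of the de novo methyltransferases, rose from 9 and 40 in NC to 1487 and 612 with DZNep (5.56 ± 0.92, adjusted p = 0.000797). Dnmt3l also rose with Valproate (442 and 536, adjusted p = 0.00650) and Bromosporine (160 and 311, adjusted p = 0.0443). The demethylating dioxygenase Tet3 fell with DZNep, from 580 and 523 to 158 and 159 (-1.79 ± 0.33, adjusted p = 0.00181).

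Beside 11.4% of all tested genes called with DZNep, 0 of 14 factors known to silence these clusters or their neighbourhood were called with any compound. With DZNep, 1 of them passed the threshold on p but not that on fold, the H3K9 methyltransferase Setdb1, at 5348 and 5667 in NC against 9922 and 9104 with DZNep (0.79 ± 0.13, adjusted p = 0.000692). Smchd1, a chromosomal protein that represses the clusters, was at 2005 and 1825 in NC against 1738 and 1136 with DZNep (adjusted p = 0.220). Ezh2, the Polycomb methyltransferase, was at 9031 and 11077 in NC against 6912 and 8923 with DZNep (adjusted p = 0.200). Neither of these values passed the threshold, and they measure RNA, not protein or activity.

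Among 17 adhesion partners and signalling genes, DZNep gave 1 call higher and 3 lower. Over all tested genes, 11.4% were called with DZNep and 6.14% were called lower. Ptk2b, a kinase of the focal adhesion family that gamma proteins bind, rose from 222 and 292 to 1058 and 1208 with DZNep (2.15 ± 0.17, adjusted p = 6.16e-06) and to 801 and 942 with Valproate (1.77 ± 0.17, adjusted p = 5.97e-05). The synaptic adhesion protein Nlgn2 fell from 2482 and 2179 to 770 and 771 with DZNep and to 1028 and 1175 with Valproate (-1.59 and -1.08). Ptk2b was also above both NC libraries with compounds that left the gamma sum near NC, at 486 and 522 with OICR (0.98 ± 0.17, adjusted p = 0.0225, under 2-fold) and at 424 and 351 with CPTH2. Ptk2, the other kinase of this family, was at 2172 and 2324 in NC against 1431 and 2166 with DZNep and was not called (-0.35 ± 0.23, adjusted p = 0.295). Cyfip2, a subunit of the WAVE complex, fell with DZNep (295 and 225) and Bromosporine (207 and 227) from 566 and 524 in NC. The protein kinase C gene Prkca fell with DZNep, from 150 and 206 to 62 and 91 (-1.22 ± 0.27, adjusted p = 0.00571).

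Few cadherins outside the clusters were called, beside 11.4% of all tested genes called with DZNep. Of 13 non-clustered protocadherins tested, DZNep gave 1 call, the large atypical cadherin Fat1, which rose from 14325 and 14022 to 31970 and 29399 (1.11 ± 0.25, adjusted p = 0.00617). The median log2 change of the 13 with DZNep was 1.11, beside -1.12 for the gamma members. Bromosporine gave a rise of Pcdh1 (42 and 45, then 155 and 101) and a fall of Fat2 (170 and 110, then 15 and 9). Some genes of this list, such as Pcdh10 (426 and 0 in NC), were at 0 in 1 library and far above 0 in its replicate. Of 8 classical cadherins tested, Cdh13 fell from 23 and 37 to 2 and 1 with DZNep and to 3 and 6 with Bromosporine, and Cdh3 rose from 231 and 195 to 1569 and 1263 with Valproate. The major cadherin of ESCs, Cdh1, was at 17912 and 14933 in NC and was not called with any compound.

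Of 15 genes beside the clusters on the same chromosome, DZNep gave 2 calls lower and 1 higher, while 11.4% of all tested genes were called. The germ cell gene Dnd1 fell from 90 and 109 to 16 and 27, and Tmco6 from 533 and 493 to 146 and 231. Taf7, a gene between the beta and gamma clusters that encodes a subunit of the general transcription factor TFIID, rose from 3125 and 4298 to 9031 and 6333 (1.04 ± 0.16, adjusted p = 0.000394). The median of this list with DZNep was 0.08, beside -1.12 for the gamma members. Over all 7 lists, 12 of 87 tested genes (13.8%) were called with DZNep, 5 (5.75%) with Valproate and 5 (5.75%) with Bromosporine, shares close to those of all genes with DZNep and Valproate, and 0 with the other compounds.

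Markers of cell types also moved with DZNep, where 11.4% of all tested genes were called and 6.14% were called lower. The summed value of 12 ESC markers was 272467 and 260857 in NC and 334576 and 342714 with DZNep, and 3 of them (Zfp42, Tbx3 and Utf1) were called higher. Of 12 neural markers tested, 4 (Nes, Sox1, Stmn2 and Elavl4) were called lower and 1 (Neurod1) higher, and the sum of the 13 in the table was 7751 and 12231 in NC, 7162 and 8014 with DZNep and 7883 and 8785 with Valproate. The neural markers differed widely in level in NC, with Syt1 at 0 and 0, Pax6 at 48 and 52, Nes at 1555 and 1613 and Stmn2 at 3082 and 5970. The sum of 10 fibroblast markers was 604 and 1477 in NC, 1819 and 2100 with DZNep and 1688 and 1538 with Valproate, with Dcn at 0 and Lum at 0 in both NC libraries. Much of this sum came from Col3a1 (4 and 743 in NC) and Postn (474 and 559 in NC, 658 and 0 with Valproate), which differed widely between libraries of a group. Col1a1 (24 and 24 in NC, 327 and 228 with DZNep) and Thy1 (12 and 11, then 66 and 64) were called higher with DZNep. Thy1 (358 and 303) and Lum (197 and 331) were called higher with Valproate. Valproate also gave Map2 (2.07), Pdgfra (1.97) and 1 ESC marker higher and Sox1 lower (-1.21), beside 5.28% of all tested genes called. With Bromosporine, Eomes (1.33) and 1 ESC marker were called higher and Col1a1 lower (-1.74), beside 3.34% of all tested genes. The 5 primitive endoderm markers summed to 454 and 364 in NC and to 467 and 739 with DZNep, and the 5 trophoblast markers to 3738 and 3281 and to 4338 and 3602, most of it from Tfap2c, which was not called. Within these lists DZNep gave calls in both directions, with Gata4 lower (-1.72) and Pdgfra (2.25), Dab2 (1.54), Eomes (1.10) and Krt8 (1.47) higher. With MS023, Sox1 was called lower and 0 of 12 ESC markers were called, beside 0.973% of all tested genes. The part of these shifts in the changes of the clustered protocadherins was not tested.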

How the data were processed

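The deposited values are scores, here normalised read counts rounded to whole numbers. Per the labels, the authors used bcl2fastq, Bowtie2 2.2.5, RSEM and the mm10 build on poly(A)-enriched RNA, and the study's methods name EDASeq at its full setting for normalisation. That step gives every library nearly the same distribution (totals 38403767 to 38419709), hides depth and takes out any shift common to most genes. No interval that needs depth was given. A second table of the authors' group means was not used.

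Values were analysed as log2(value + 1) with limma 3.58.1 in R 4.3.3, with 11 group means over 22 libraries (11 residual degrees of freedom), a trend in eBayes and Benjamini-Hochberg adjustment within each comparison with NC. P-values are two-sided. Groups came from the treatment labels and titles. Genes at 10 or more in at least 2 libraries were tested. The fit was tested on simulated data. Positions, transcript lengths and shared 31-base stretches came from GENCODE M21 of GRCm38 (mm10). No fold is given against a group at 0.

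The members and gene lists were chosen with earlier results of these data known. Genes named are the called members, the C-type members, the 3 highest of each cluster, the largest non-overlapping rise and fall per compound and the called genes of the lists. Further members and genes named beside them were chosen after their values were seen. Alternatives changed the pseudocount, filter, scaling, reference, adjustment, libraries fitted and replicate term.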

Additional observations from a re-analysis of the deposited data

How the results depend on the processing

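No call reversed its direction under any alternative. The 20 calls of clustered protocadherins were kept in full without a filter on low values, after median-ratio rescaling and with a replicate block, 19 were kept with the mean of the other groups as reference, 17 with a pseudocount of 10 and 16 when p-values were adjusted over all comparisons together. None was kept when a compound and NC were fitted alone, where the member counts were 0 for DZNep, Valproate, Bromosporine and MS023, and those of the lists 0 for DZNep, Valproate and Bromosporine and 1 each for CPTH2, IOX1 and MS023. Those fits have fewer libraries and residual degrees of freedom. Leaving out the first or the second NC library kept 11 and 10 of the 20 calls.

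With single libraries left out, the member counts were 0 to 1 for Bromosporine, 0 to 0 for MS023, 2 to 2 for Valproate and 9 to 14 for DZNep. The list counts were 2 to 3 for Bromosporine, 2 to 6 for Valproate and 0 to 1 for OICR. The gamma median ranged from -1.25 to -0.78 with DZNep and from -0.83 to -0.42 with Valproate. With the mean of the other groups as reference, MS023 had 2 members called (Pcdhgb5 and Pcdhga8) and 1 gene of the lists, as many as without the filter, while Valproate gained Pcdhgc5 and Pcdhb22 and DZNep gained Pcdhga9 (-1.17, adjusted p = 0.0166) and lost Pcdhga12. Adjustment over all comparisons gave list counts of 3 for Bromosporine and 1 each for IOX1 and OICR. The causes were not tested.

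The labels do not say that replicate numbers mark a shared batch. The differences between replicates correlated positively in each of the 55 pairs of groups (lowest 0.05, median 0.20) and over 0.1 in 51 of them. This points to a structure shared by replicate number, which the main fit, taking no pairs, leaves in its residual spread. At an unadjusted limma p under 0.05, 35.4% of all genes passed with DZNep in the main fit and 50.3% with a replicate block. With the replicate block, more of all genes were called (15.1% with DZNep, 8.61% with Valproate, 6.88% with Bromosporine, 2.8% with MS023 and 1.26% with IOX1), MS023 had 2 members called, Pcdhgb5 and Pcdhga8 (1.06, adjusted p = 0.0466), and the list counts were 1 for Chaetocin, 3 for IOX1, 1 for MS023, 3 for OICR and 9 for Valproate.

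Over the 7 gamma members with at most 50% of their stretches shared, the sums were 82.5% of NC with Bromosporine, 90.3% with MS023, 84.9% with OICR and 86.0% with UNC0379. The alpha and beta clusters had 1 tested member each, so no median is given for them. Depth per library is unknown, and the precision of members with single values as low as 4 (Pcdhb22) and 2 (Pcdhgb1) cannot be given.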
